A study of Homo sapiens with 6 samples.

Results

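FOXA1, LPCAT1 and CEACAM6 were the members of a lung lineage gene list that a comparison of gefitinib-resistant and parental lung adenocarcinoma cells placed among its changed genes. Members were taken by symbol from the deposited table. The 3 genes gave 4 of its 1705 entries, because CEACAM6 stands there under 2 identifiers, on chromosome 19 and on a patch scaffold. The resistant line was PC9-GR, a derivative of the PC9 line selected with gefitinib from 0.5 to 10 µM, kept at 10 µM and grown without the drug for 7 days before RNA extraction. It was compared with the parental PC9 line which had no such selection, and both lines carry a deletion in exon 19 of the kinase gene EGFR, the target of gefitinib. Each line gave 3 libraries of total RNA from independent cultures. Whether PC9-GR is 1 clone or a mixed population is not given in the sources used here.

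FOXA1 encodes a pioneer transcription factor, a protein that binds its sites in closed chromatin and helps other factors to reach them. In the lung it acts with its relative FOXA2 and with NKX2-1 during formation of the airway and alveolar epithelium. LPCAT1 encodes an acyltransferase of the endoplasmic reticulum and lipid droplets that adds a fatty acid to lysophosphatidylcholine, and alveolar type II cells use it to make the saturated phosphatidylcholine of surfactant. CEACAM6 encodes a cell surface adhesion protein of the carcinoembryonic antigen family that is held in the membrane by a glycosylphosphatidylinositol (GPI) anchor and is found on airway and alveolar epithelium, on granulocytes and on many adenocarcinomas. The name lung lineage is therefore loose for CEACAM6, and LPCAT1 is also used for membrane phospholipids in other tissues.

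The 3 members with their promoter windows are given first, with CEACAM5, the neighbour and near relative of CEACAM6 that is read in the same locus. Each window runs from 250 bases before to 50 bases after the start of the RefSeq gene on GRCh38.p14, and capitals mark the letters of any motif searched. In the GENCODE 29 annotation the spans of FOXA1 and CEACAM6 begin upstream of these windows, at 37596059 and 41750977. Their windows therefore describe the RefSeq start alone, and which start the cells use was not tested.
FOXA1, chr14:37595200-37595499, minus strand: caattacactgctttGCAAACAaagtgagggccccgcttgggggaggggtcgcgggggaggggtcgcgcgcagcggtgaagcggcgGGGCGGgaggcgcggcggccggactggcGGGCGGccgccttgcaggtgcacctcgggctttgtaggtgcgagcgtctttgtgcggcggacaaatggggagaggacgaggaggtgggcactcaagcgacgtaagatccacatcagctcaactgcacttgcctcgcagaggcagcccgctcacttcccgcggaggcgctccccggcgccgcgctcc
LPCAT1, chr5:1523911-1524210, minus strand: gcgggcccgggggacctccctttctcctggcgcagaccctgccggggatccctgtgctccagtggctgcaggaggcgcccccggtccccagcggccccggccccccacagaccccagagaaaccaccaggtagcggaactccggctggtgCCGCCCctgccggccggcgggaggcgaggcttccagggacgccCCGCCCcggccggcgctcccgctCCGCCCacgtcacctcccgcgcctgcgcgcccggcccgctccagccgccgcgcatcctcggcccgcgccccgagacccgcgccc
CEACAM6, chr19:41755280-41755579, plus strand: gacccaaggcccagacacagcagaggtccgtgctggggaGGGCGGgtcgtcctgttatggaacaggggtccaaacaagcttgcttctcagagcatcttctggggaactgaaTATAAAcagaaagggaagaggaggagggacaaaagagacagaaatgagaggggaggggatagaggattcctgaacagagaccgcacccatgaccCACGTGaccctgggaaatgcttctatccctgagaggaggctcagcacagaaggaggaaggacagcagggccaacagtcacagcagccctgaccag
CEACAM5, chr19:41708376-41708675, plus strand: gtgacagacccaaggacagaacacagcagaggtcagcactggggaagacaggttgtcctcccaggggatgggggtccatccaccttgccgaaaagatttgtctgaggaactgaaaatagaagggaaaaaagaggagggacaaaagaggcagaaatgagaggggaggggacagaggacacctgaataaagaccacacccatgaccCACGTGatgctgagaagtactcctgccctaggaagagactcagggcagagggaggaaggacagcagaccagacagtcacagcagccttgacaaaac
The windows of FOXA1 and LPCAT1 are rich in G and C, at 69.3% and 80.0%, with 34 and 38 CG dinucleotides, against a median of 58.7% and 14 CG dinucleotides over 35116 RefSeq windows of the same length. CEACAM6 has a window of another kind, with 56.0% G and C and 5 CG dinucleotides, and that of CEACAM5 has 53.3% and 2. Motifs were searched on both strands. The forkhead motif TGTTTGC, bound by FOXA1 and its relatives, is found once in the FOXA1 window, on the strand opposite to the gene and starting 235 bases before its start, and 3.89% of all windows hold it. The other forkhead motif searched, TGTTTAC, is in none of the 4 windows and in 3.42% of all. The GC box GGGCGG occurs 2 times in the FOXA1 window, 3 times in that of LPCAT1 and 1 time in that of CEACAM6, and 45.0% of all windows hold it. CEACAM6 alone among the 4 has the TATA box TATAAA (11.5% of all windows), starting 139 bases before the gene's start, upstream of the usual place of such a box, and it shares the E-box CACGTG (7.26% of all windows) with CEACAM5 at nearly the same place. The AP-1 motif TGANTCA (7.71% of all) and the CCAAT box CCAAT (34.6% of all) are in none of the 4 windows. None of the motifs found overlaps another. The windows of CEACAM6 and CEACAM5 match at 230 of 292 aligned base pairs, 78.8%, and their longest common run is cagaaatgagaggggagggga.

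All values are FPKM, fragments scaled to transcript length and library size, so levels can be set beside each other between genes. The table is a selection by the authors, in which the smallest absolute log2 ratio is 1.0002 and the largest p-value is 0.04965. Every entry, the members included, had therefore been chosen on these 6 libraries, and a test on the same libraries adds no independent evidence of a difference. Sequencing depth is unknown, as no counts are given. Within the table the listed FPKM sum to 16705 to 17114 in the PC9-GR libraries and to 28346 to 30541 in the PC9 libraries. In bulk RNA, fewer cells that express a gene and less RNA per cell cannot be told apart.

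The RNA of each of the 3 genes was lower in PC9-GR. FOXA1 stood at 37.8% and LPCAT1 at 46.9% of their PC9 means, while the 2 CEACAM6 entries stood at 1.21% and 1.64%. All 4 entries passed the filter of at least 1 FPKM in at least 3 libraries, and limma called all 4 lower at an adjusted p under 0.05. Of the whole table, 51.3% of the 1207 entries tested were called lower and 48.4% higher, so the calls themselves set the members apart from the rest in no way. What differed among the members was the size of the fall.

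**Figure D1:**
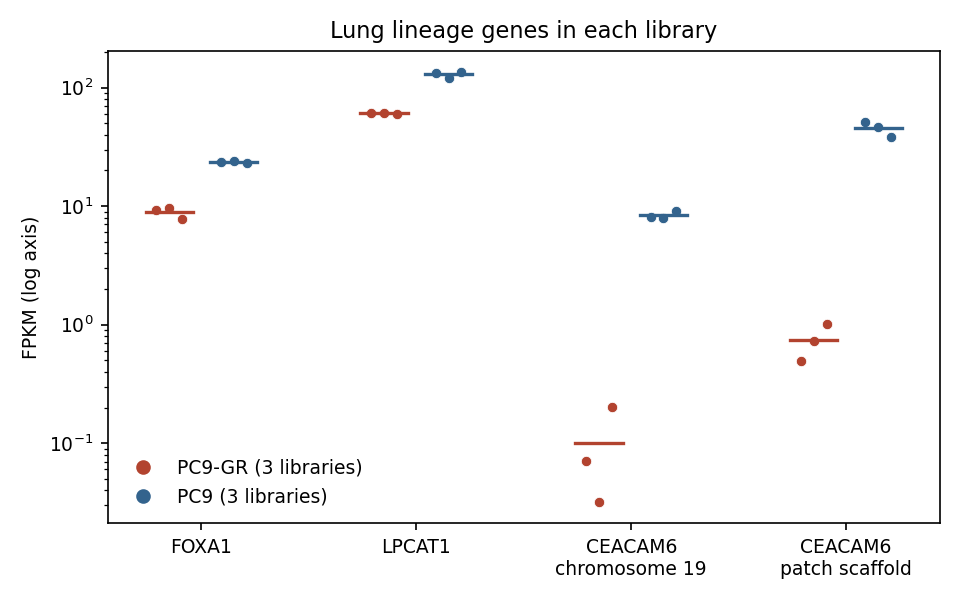
FPKM on a log axis of the 4 entries in each of the 3 PC9-GR libraries (red, left of each pair) and the 3 PC9 libraries (blue), with a line at each group mean. The PC9-GR points lie below the PC9 points in every entry, by a small step for FOXA1 and LPCAT1 and by a wide one for both CEACAM6 entries.

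FOXA1 (ENSG00000129514) measured 9.26, 9.72 and 7.82 FPKM in the PC9-GR libraries, against 23.7, 24.0 and 23.1 FPKM in the PC9 libraries. The groups do not overlap, as they do not for 51.0% of the tested entries in that direction, and the PC9 libraries lie so close together that their coefficient of variation was 1.88%, against 11.1% in PC9-GR. The means were 8.93 ± 0.989 FPKM in PC9-GR and 23.6 ± 0.443 FPKM in PC9 (SD, n = 3 libraries each), 2.64-fold lower in PC9-GR. On the scale log2(FPKM + 1) the difference was -1.31 with a standard error of 0.11 (limma adjusted p = 2.82e-06). FOXA1 RNA was still measured in the resistant cells, ranking 328 to 394 among the 1705 listed entries in the PC9-GR libraries and 197 to 212 in the PC9 libraries. Ranks among these selected entries do not place a gene among all transcripts.

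LPCAT1 (ENSG00000153395) measured 61.6, 60.6 and 60.1 FPKM in the PC9-GR libraries, against 133.8, 120.2 and 134.7 FPKM in the PC9 libraries. Here it was the PC9-GR libraries that lay closest together, with a coefficient of variation of 1.24%, against 6.29% in PC9. The means were 60.8 ± 0.752 FPKM in PC9-GR and 129.6 ± 8.15 FPKM in PC9 (SD, n = 3 each), 2.13-fold lower in PC9-GR. The log2 difference was -1.08 with a standard error of 0.09 (limma adjusted p = 3.19e-06). It was the most abundant member in both lines, and even after its fall it ranked 48 to 51 among the listed entries in PC9-GR, against 38 to 45 in PC9. The size of the LPCAT1 fall depended most on how the listed entries were scaled. Its log2 difference was -0.28 with equal library totals and -0.23 under quantile normalization, each still called. Both settings used the listed FPKM alone. Library totals here are sums over entries selected for a difference, not over whole libraries. How far the fall depends on the scaling of whole libraries was not tested. Those 2 settings also moved the median of all tested entries, by 0.47 and 0.35 on the log2 scale (median-ratio scaling moved it by -0.14). Relative to that median LPCAT1 was lower by 0.45 as deposited, lower by 0.13 with equal totals and higher by 0.05 under quantile normalization. That median is no reference for an unchanged gene, as the authors' selection left a gap around 0. It was -1.03 with a filter at 5 FPKM and 0.29 without a filter, while LPCAT1 stayed at -1.08.

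CEACAM6 is listed under ENSG00000086548 on chromosome 19 and under ENSG00000272939 on the scaffold HG1350_HG959_PATCH. The chromosome 19 entry measured 0.0703, 0.0321 and 0.201 FPKM in the PC9-GR libraries, against 8.14, 7.91 and 9.04 FPKM in the PC9 libraries. The scaffold entry measured 0.496, 0.727 and 1.02 FPKM in the PC9-GR libraries, against 51.7, 46.8 and 38.2 FPKM in the PC9 libraries. In neither entry do the groups come near each other, and in PC9-GR both are at levels where single libraries differ widely. The means of the chromosome 19 entry were 0.101 ± 0.0888 FPKM in PC9-GR and 8.37 ± 0.600 FPKM in PC9, and those of the scaffold entry were 0.747 ± 0.262 FPKM in PC9-GR and 45.6 ± 6.82 FPKM in PC9 (SD, n = 3 each). The log2 difference was -3.09 with a standard error of 0.13 for the chromosome 19 entry (limma adjusted p = 8.43e-08) and -4.74 with a standard error of 0.16 for the scaffold entry (limma adjusted p = 3.30e-08). With a pseudocount of 0.1 in place of 1 the differences were -5.48 and -5.79, since the pseudocount of 1 is larger than most of the PC9-GR values.

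Both CEACAM6 entries stand for copies of 1 gene, so how reads were divided between them is uncertain. The scaffold entry held most of the signal: the chromosome 19 entry made up 12.4%, 4.23% and 16.5% of their sum in the PC9-GR libraries, against 13.6%, 14.5% and 19.1% in the PC9 libraries. These shares overlap between the lines. Added together, CEACAM6 measured 0.566, 0.759 and 1.22 FPKM in the PC9-GR libraries, against 59.9, 54.7 and 47.3 FPKM in the PC9 libraries. The sum was 63.6-fold lower in PC9-GR, and a fit with the 2 entries added gave a log2 difference of -4.90 with a standard error of 0.15 (limma adjusted p = 2.42e-08), a setting chosen after seeing the data. Of 3003 distinct stretches of 50 bases in the CEACAM6 transcripts of GENCODE 29, 7.0% also occur in a transcript of another gene, 112 of them in AC243967.1, 40 in CEACAM5 and 35 in CEACAM1, and for FOXA1 and LPCAT1 the count is 0.

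**Figure D2:**
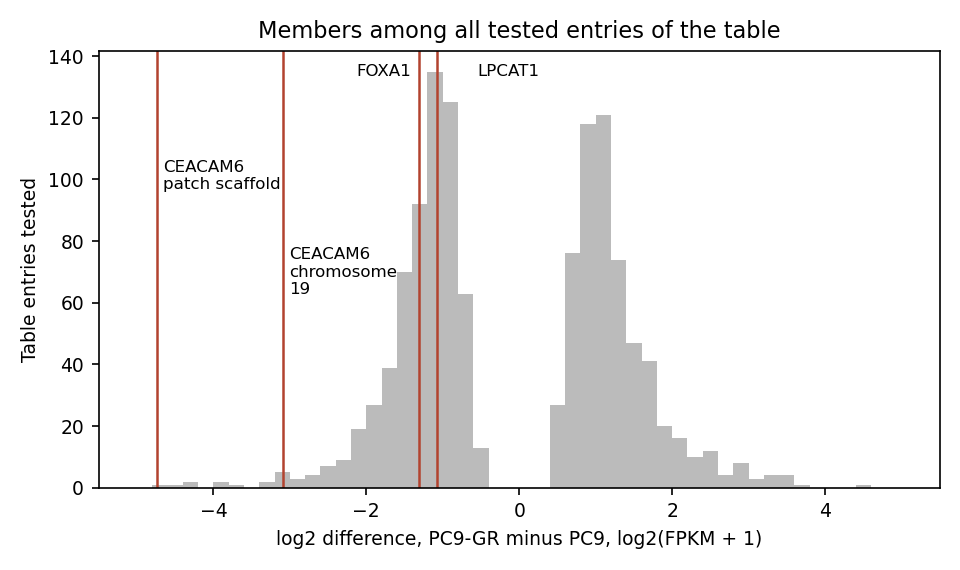
Histogram of the log2 difference, PC9-GR minus PC9 on the scale log2(FPKM + 1), over the 1207 tested entries, with red lines at the members. FOXA1 (-1.31) and LPCAT1 (-1.08) lie in the bulk of the lower entries, and the CEACAM6 entries (-3.09 and -4.74) lie in the far left tail; the gap around 0 comes from the authors' selection.

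Set against the 619 entries called lower, FOXA1 and LPCAT1 fell by ordinary amounts on the log2(FPKM + 1) scale. The median log2 difference of those 619 entries was -1.15, with quartiles at -1.51 and -0.96, and both genes lie between the quartiles. CEACAM6 on the scaffold had the largest fall of all entries called lower on the log2(FPKM + 1) scale, and the chromosome 19 entry ranked 12. By the ratio in the authors' deposited table, which uses no pseudocount, the CEACAM6 entries rank 35 and 36 of 834 lower entries, FOXA1 ranks 465 and LPCAT1 ranks 752. By that ratio the fall of LPCAT1 was thus among the smaller ones, as the smallest absolute log2 ratio listed is 1.0002. The authors' deposited table gives log2 ratios of -1.40 for FOXA1, -1.07 for LPCAT1, -6.42 for CEACAM6 on chromosome 19 and -5.93 for CEACAM6 on the scaffold, each with a q-value of 0.000285. The order of levels between genes differed between the lines. In PC9-GR it ran LPCAT1, FOXA1, CEACAM6 on the scaffold and CEACAM6 on chromosome 19, and in PC9 the scaffold entry of CEACAM6 stood above FOXA1. No 2 neighbours in either order overlap over their 3 libraries.

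Whether 2 members fell by different factors was tested with the log2 ratio of the 2 within each library, for 6 pairs, by a two-sided exact permutation test. With 3 against 3 libraries its smallest p is 0.1, so no pair could reach 0.05. The quotient of FOXA1 to LPCAT1 in FPKM was 0.150, 0.160 and 0.130 in the PC9-GR libraries, against 0.177, 0.200 and 0.172 in the PC9 libraries. The PC9-GR values lie below those of PC9 without overlap, and on the log2(FPKM + 1) scale the ratio differed by -0.24 (exact permutation p = 0.1, adjusted p = 0.1 over the 6 pairs). The quotient of LPCAT1 to CEACAM6 on the scaffold was 124.2, 83.4 and 59.02 in the PC9-GR libraries, against 2.59, 2.57 and 3.52 in the PC9 libraries (difference 3.66 on the log2(FPKM + 1) scale, exact permutation p = 0.1, adjusted p = 0.1). CEACAM6 on chromosome 19 over CEACAM6 on the scaffold differed by 1.65 on that scale (exact permutation p = 0.1, adjusted p = 0.1), a value set by the pseudocount: with none it was -0.78 (exact permutation p = 0.4). The remaining 3 pairs, FOXA1 with each CEACAM6 entry and LPCAT1 with CEACAM6 on chromosome 19, differed by 1.77, 3.42 and 2.01 (exact permutation p = 0.1 for each).

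Genes related to the members were taken from 12 lists. Of 30 lung lineage genes, only the 3 members are in the table, and the others, among them NKX2-1, FOXA2 and the surfactant protein genes, were not analysed here. Of 42 forkhead genes FOXA1 is the only one listed. Of 32 epithelial transcription factors 6 are listed, FOXA1 itself among them. All 6 were called lower, as were 51.3% of all tested entries. Their median log2 difference was -1.19, against -0.63 over all tested entries and -1.15 over all entries called lower. ELF5, an ETS factor of secretory epithelium, measured 1.95 ± 0.117 FPKM in PC9-GR and 10.4 ± 0.987 FPKM in PC9, 5.32-fold lower in PC9-GR (limma adjusted p = 7.72e-07). OVOL1, a zinc finger factor that represses mesenchymal genes, was 3.44-fold lower, and KLF5, a Krüppel-like factor of proliferating epithelium, was 2.10-fold lower in PC9-GR at 56.6 ± 5.92 FPKM, against 118.7 ± 9.15 FPKM in PC9. SPDEF, a factor of mucus-producing cells, was lower at 0.209 ± 0.0972 FPKM in PC9-GR, against 1.29 ± 0.152 FPKM in PC9. GRHL3, a grainyhead factor of barrier epithelium, measured 1.30 ± 0.340 FPKM in PC9-GR and 3.02 ± 0.428 FPKM in PC9, and it was no longer called once library totals were made equal (limma adjusted p = 0.109).

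Around LPCAT1, 5 of 48 genes of lysophospholipid and phosphatidylcholine metabolism are listed, LPCAT1 itself included. Of the 3 tested, 2 were called lower, 1 of them LPCAT1 itself, and 1 higher. Of all tested entries 51.3% were called lower and 48.4% higher. LPCAT2, an acyltransferase that also makes platelet-activating factor, fell by nearly the same amount as LPCAT1. It measured 32.2, 35.3 and 39.2 FPKM in the PC9-GR libraries, against 83.98, 81.0 and 79.3 FPKM in the PC9 libraries (log2 difference -1.18 ± 0.10 SE, limma adjusted p = 3.26e-06). PLA2G4C, a phospholipase that releases lysophospholipid, was higher in PC9-GR at 1.05 ± 0.0425 FPKM, against 0.465 ± 0.113 FPKM in PC9 (limma adjusted p = 0.000674). AGPAT4, an acyltransferase acting on lysophosphatidic acid, and PCYT1B, an isoform of the enzyme that makes CDP-choline, were below the filter. AGPAT4 measured 0.443 ± 0.0376 FPKM in PC9-GR and 0.0651 ± 0.0690 FPKM in PC9, and PCYT1B measured 0.570 ± 0.484 FPKM in PC9-GR and 0.0935 ± 0.0837 FPKM in PC9, with groups that overlap.

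Around CEACAM6, 5 of 22 genes of the CEACAM and pregnancy-specific glycoprotein (PSG) family are listed, with 6 entries. Of the 4 tested, 3 were called lower, 2 of them CEACAM6 itself, and 1 higher. The shares over all tested entries were 51.3% lower and 48.4% higher. CEACAM5, which encodes carcinoembryonic antigen, was at the floor of the table (0.001 FPKM) in PC9-GR replicates 1 and 2 and at 0.0139 FPKM in replicate 3, against 0.532, 0.396 and 0.285 FPKM in the PC9 libraries. It did not pass the filter, and without the filter limma called it lower (adjusted p = 0.000575), where 47.5% of all 1705 entries were called lower. CEACAM1, an adhesion receptor with a cytoplasmic tail, measured 0.526 ± 0.146 FPKM in PC9-GR and 1.50 ± 0.319 FPKM in PC9, 2.85-fold lower in PC9-GR (limma adjusted p = 0.000385). The placental glycoprotein genes went the other way. PSG5 was higher in PC9-GR at 1.70 ± 0.396 FPKM, against 0.103 ± 0.0401 FPKM in PC9 (limma adjusted p = 5.14e-06), and PSG9, below the filter, measured 0.480 ± 0.112 FPKM in PC9-GR and 0.201 ± 0.0302 FPKM in PC9. These genes resemble each other closely, and their values are uncertain to the extent that reads were divided among them.

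**Figure D3:**
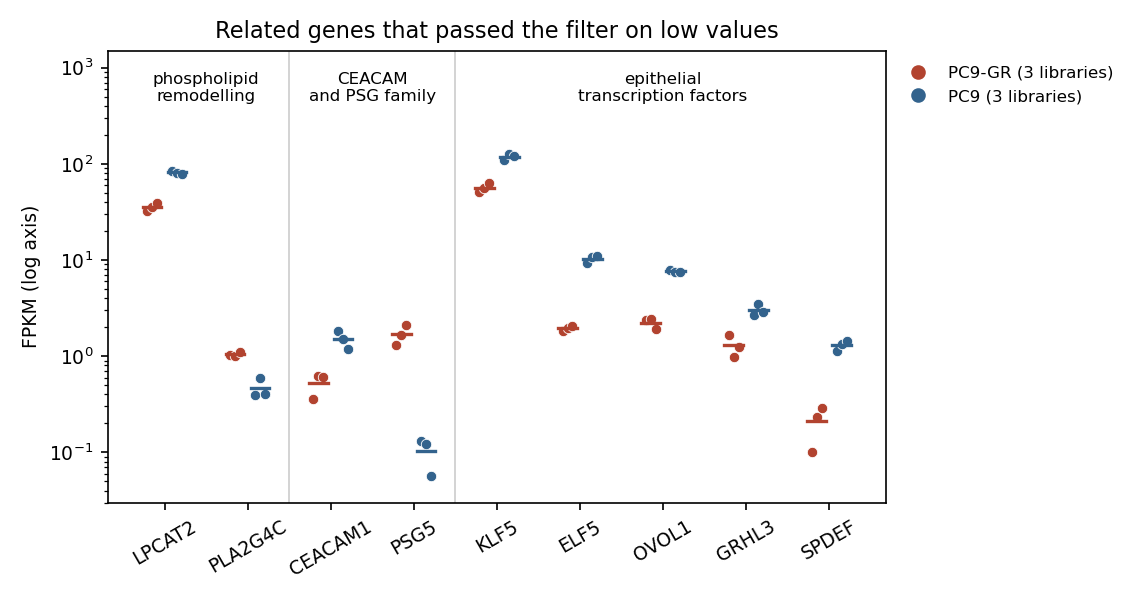
FPKM on a log axis in each PC9-GR library (red, left of each pair) and PC9 library (blue), with group means, for the genes of 3 related lists that passed the filter, the members themselves left out. LPCAT2, CEACAM1 and the 5 transcription factors lie lower in PC9-GR, while PLA2G4C and PSG5 lie higher.

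The members lie in different surroundings on their chromosomes. Positions are those of the table, whose genome build is not named and which differ from GRCh38. FOXA1 is placed on chromosome 14 within 38059188 to 38672128, a locus of 612941 bp, although the gene covers 6076 bp in GENCODE 29. There its first bases overlap the oppositely transcribed gene TTC6 over 213 bp, and whether the counting used strand is not given in the sources used here. On chromosome 14, 74 of 93 listed entries had a lower authors' ratio (79.6%, against 48.9% over the table), but the listed genes nearest to FOXA1 went the other way. The 3 nearest listed genes before FOXA1 were TGM1, STXBP6 and EGLN3, and the 3 after it were LRFN5, a long non-coding RNA and FERMT2. All had higher authors' ratios, and 5 of them passed the filter and were called higher, as were 48.4% of all tested entries. The long non-coding RNA was called although its groups overlap. It measured 2.45, 4.97 and 6.37 FPKM in the PC9-GR libraries, against 2.88, 1.14 and 1.09 FPKM in the PC9 libraries. EGLN3, an oxygen-sensing hydroxylase, measured 10.1 ± 0.370 FPKM in PC9-GR and 5.02 ± 0.881 FPKM in PC9 (limma adjusted p = 0.000115). Of the 2 other listed entries whose locus midpoint lies within 10 Mb of that of FOXA1, 0 were lower. Listed genes are sparse there: between locus midpoints LRFN5, below the filter, lies 3860 kb from FOXA1, and FERMT2 lies 15006 kb away.

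LPCAT1 is placed on chromosome 5 within 1456594 to 1524092, and 41 of 84 listed entries of that chromosome (48.8%) were lower. Its nearest listed neighbour is TERT, the catalytic subunit of telomerase, which was also lower in PC9-GR at 0.531 ± 0.0966 FPKM, against 1.54 ± 0.145 FPKM in PC9 (limma adjusted p = 8.08e-05). Farther out the directions were mixed. AHRR and ROPN1L were called higher and SNHG18 lower, and SNHG18 was not called with totals made equal (limma adjusted p = 0.213), while PLEKHG4B and SEMA5A were below the filter with lower authors' ratios.

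CEACAM6 is placed on chromosome 19 within 42212503 to 42290801, a locus that the table also gives for CEACAM5, and 64 of 117 listed entries of the chromosome (54.7%) were lower. The next listed entries on its far side, CEACAM1 and LIPE, a hormone-sensitive lipase, share a locus and were both called lower, LIPE not once totals were made equal (limma adjusted p = 0.156). PSG5, after them, was called higher. On the near side MIA, B3GNT8 and SPTBN4 were below the filter. B3GNT8 measured 0.0438, 0.347 and 0.0693 FPKM in the PC9-GR libraries, against 0.0734, 0.198 and 13.7 FPKM in the PC9 libraries, so its lower authors' ratio rests on PC9 replicate 3 alone. Within 10 Mb, 19 of 47 other listed entries were lower.

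**Figure D4:**
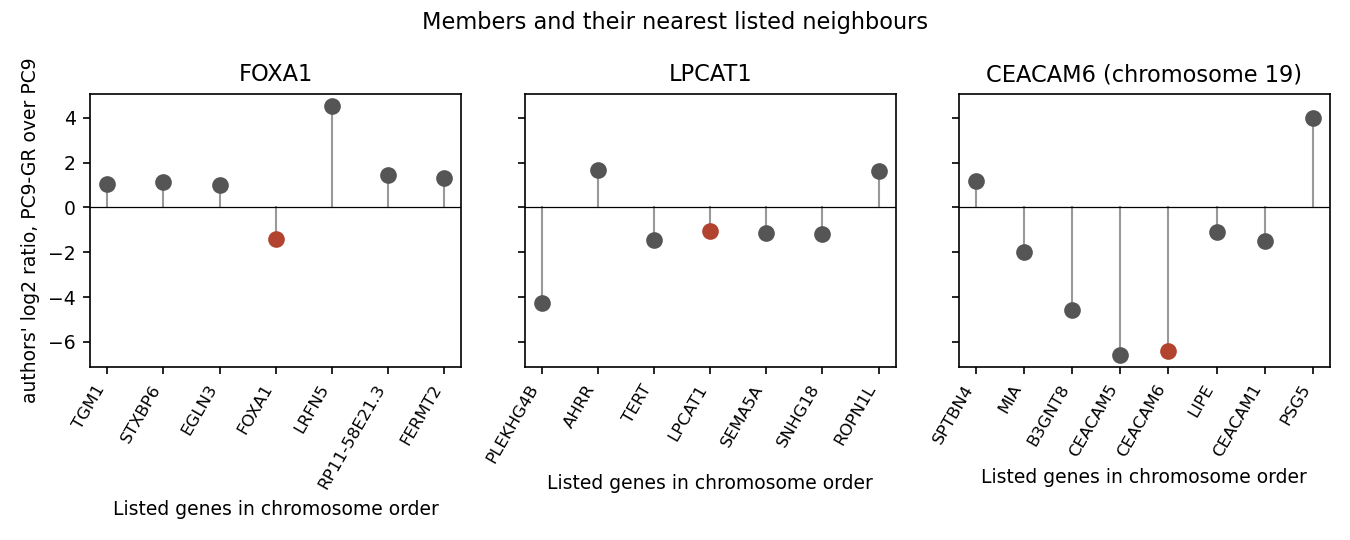
Authors' log2 ratio, PC9-GR over PC9, of FOXA1, LPCAT1 and CEACAM6 on chromosome 19 (red) and of the nearest listed genes on either side (grey), in the order of their loci along the chromosome, evenly spaced; CEACAM5 and CEACAM6, and likewise LIPE and CEACAM1, share a locus. FOXA1 is the only lower entry among the neighbours shown, which are not drawn to distance. Around LPCAT1, TERT, PLEKHG4B, SEMA5A and SNHG18 are also lower, and AHRR and ROPN1L are higher. CEACAM6 has an authors' ratio near that of CEACAM5, which was below the filter.

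The genes with the profile most like each member over the 6 libraries were found by the root mean square distance between log2(FPKM + 1) values centred on each gene's mean, which in this design mostly reflects the size of the difference between the lines. Nearest to FOXA1 were OVOL1 (distance 0.06), COBL, an actin nucleator (0.07), and LLGL2, a polarity protein of epithelial cells (0.07). Nearest to LPCAT1 were ZNF532 (0.04), the dehydrogenase GPD1L (0.06) and the non-coding RP11-259N19.1 (0.06). Nearest to CEACAM6 on chromosome 19 were TMEM71 (0.09), the molybdenum cofactor sulfurase MOCOS (0.13) and the urea cycle enzyme CPS1 (0.14). Nearest to CEACAM6 on the scaffold were the keratin KRT13 (0.20), the cancer-testis antigen MAGEA4 (0.22) and AC019349.5 (0.48), so few entries lay near it on this scale. AC019349.5 is placed at the same locus as KRT13 and has an authors' q-value of 0.0847. The authors' log2 ratio was -17.7 for MAGEA4, -7.11 for AC019349.5 and -5.88 for KRT13, against -5.93 for CEACAM6 on the scaffold. KRT13 measured 0.535 ± 0.234 FPKM in PC9-GR and 31.2 ± 2.99 FPKM in PC9, and MAGEA4 was at the floor of the table in the 3 PC9-GR libraries.

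Markers of other cell states moved with the lines as well, and their part in the fall of the members was not tested. Of the 1207 tested entries 48.4% were called higher and 51.3% lower, so a call alone sets no marker apart. Of 31 mesenchymal markers 12 are listed, all called higher, with summed levels of 732.9 to 825.2 FPKM in PC9-GR and 127.7 to 146.7 FPKM in PC9. On the log2(FPKM + 1) scale COL6A3 and VIM had the largest differences among them. Of 22 squamous markers 12 are listed and 10 were tested, all called lower, with sums of 145.6 to 170.3 FPKM in PC9-GR and 586.3 to 964.0 FPKM in PC9. On the log2(FPKM + 1) scale KRT13 and SPRR1B had the largest falls. The 2 untested squamous markers were higher in PC9-GR when limma was run without the filter: DSG3 measured 1.01 ± 0.208 FPKM in PC9-GR and 0.402 ± 0.0296 FPKM in PC9, and KRT6C measured 0.548 ± 0.137 FPKM in PC9-GR and 0.267 ± 0.105 FPKM in PC9. TRIM29, one of the 10 called lower, was not called with totals made equal (limma adjusted p = 0.0922) or with quantile-normalized values (limma adjusted p = 0.0640). Of 26 epithelial markers only CLDN1 is listed and was called lower, so the labelled epithelial type could not be checked further from this table. Of 24 gastrointestinal markers AGR2, a secretory pathway disulfide isomerase, and CEACAM5 are listed. AGR2 was lower at 3.35 ± 0.618 FPKM in PC9-GR, against 36.8 ± 12.4 FPKM in PC9 (limma adjusted p = 1.79e-06). Of 16 myeloid and neutrophil markers, a class that includes cells carrying CEACAM6, 4 are listed with sums of 43.0 to 51.6 FPKM in PC9-GR and 18.7 to 22.0 FPKM in PC9. Most of each sum was CD68, at 38.4 ± 3.61 FPKM in PC9-GR and 18.6 ± 1.05 FPKM in PC9, with an authors' q-value of 0.0699. ITGAM, ITGAX and CD68 were called higher, and LYZ, below the filter, measured 0.142 ± 0.125 FPKM in PC9-GR and 1.09 ± 0.459 FPKM in PC9. The other 12 of these markers, PTPRC and CD14 among them, were not analysed here. Of 13 endothelial and lymphoid markers 0 are listed.

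**Figure D5:**
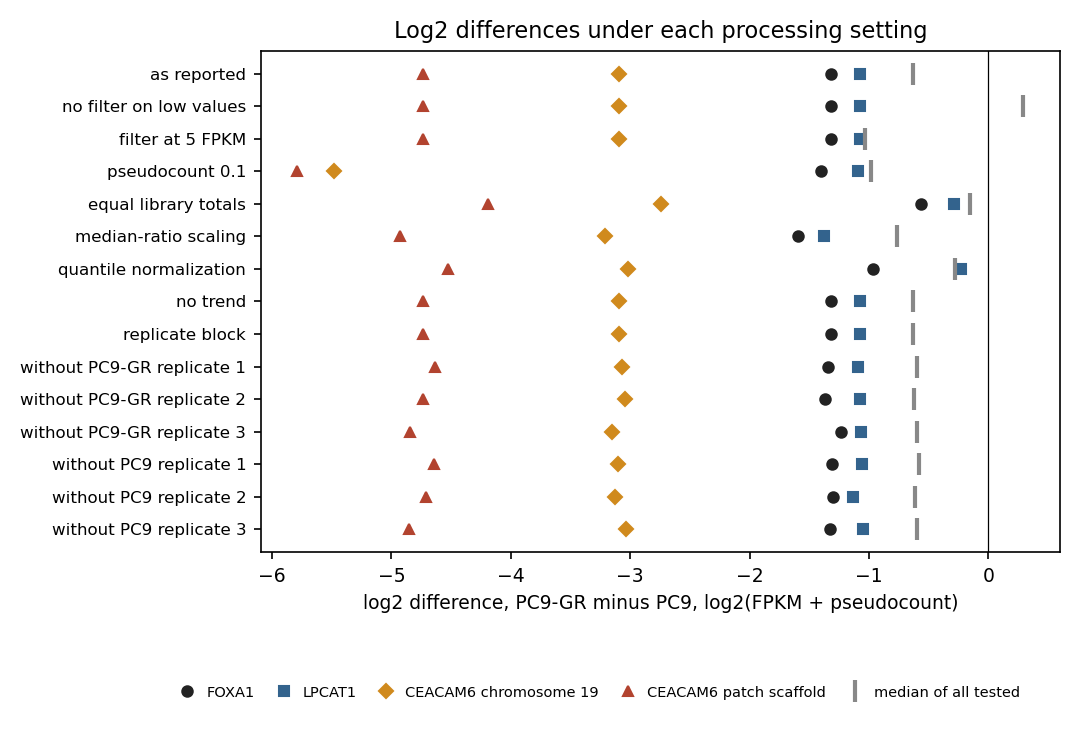
Log2 difference, PC9-GR minus PC9, of the 4 entries under each processing setting (rows), with grey bars at the median of all tested entries. Every point lies left of 0; equal library totals and quantile normalization bring FOXA1 (-0.57 and -0.96) and LPCAT1 (-0.28 and -0.23) closest to it, and a pseudocount of 0.1 moves the CEACAM6 entries farthest from it.

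FOXA1 had a log2 difference of -0.57 with equal library totals against -1.31 as deposited, and of -0.96 under quantile normalization, and it was called under both. The adjusted p of limma over the alternatives ran from 5.75e-07 to 0.0011 for FOXA1, from 4.34e-07 to 0.0279 for LPCAT1, from 8.19e-09 to 4.01e-06 for CEACAM6 on chromosome 19 and from 2.67e-09 to 2.66e-06 for CEACAM6 on the scaffold. Leaving out any 1 of the 6 libraries left all 4 entries called lower.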

How the data were processed

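RNA of 3 PC9-GR and 3 PC9 libraries was measured by sequencing of strand-specific libraries, per the labels' protocols. TopHat and Cufflinks are named in the submitters' processing notes. Neither their versions nor the build, the annotation or the use of strand is given in the sources used here. The authors deposited FPKM per library and per group, and, per the file headers, a ratio (PC9-GR over PC9), the same ratio as log2, and p-values and q-values of their own test. The value 0.001 FPKM was taken as the table's floor.

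From the deposited FPKM, log2(FPKM + 1) was fitted for the entries with at least 1 FPKM in at least 3 libraries (1207 tested, 498 left out) in R 4.3.3 by limma 3.58.1, using group alone as the model term, a trended variance prior, two-sided tests and Benjamini-Hochberg adjustment over all tested entries at 0.05. The step was tested on simulated data in which most entries were unchanged, unlike the entries here, which were all selected for a difference. Folds are ratios of mean FPKM. Exact permutation tests used scipy 1.17.1 in Python 3.11.15. Promoter windows came from RefSeq (GRCh38.p14, 3 of 3 members matched by symbol) and gene spans from GENCODE 29. Alternatives changed the pseudocount, the filter, the scaling, the trend, the replicate block and the libraries. Each scaling, equal library totals included, was computed on the listed entries alone and not on whole libraries.

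The members and the 12 gene lists were chosen with earlier results of these data known, so lists are described by counts and medians and given no test. Related genes named are all listed genes of the lung lineage, CEACAM and PSG, forkhead, epithelial transcription factor and phospholipid lists, up to 2 called genes per direction in the other lists, the 3 nearest profiles per member and the 3 nearest listed genes on either side; CD68, LYZ, TRIM29, DSG3 and KRT6C were added after their values were seen.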

Additional observations from a re-analysis of the deposited data

How the results depend on the processing

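The 4 entries were called lower under each alternative that keeps them apart, and the limits are those of the table: it holds genes selected on these libraries, no counts, and CEACAM6 at levels in PC9-GR that a pseudocount sets. With a filter at 5 FPKM, 627 of the table's entries were called (234 higher and 393 lower), against 1203 (584 higher and 619 lower) as reported, and 11 list entries were called higher, against 22; fewer entries were tested. With equal library totals 586 were called higher and 433 lower, and without the filter 846 and 810. Without a pseudocount, the log2 ratio of CEACAM6 on chromosome 19 to CEACAM6 on the scaffold differed by -0.78 in place of 1.65, a reversal that follows from the pseudocount. Leaving out each library in turn gave -1.37 to -1.23 for FOXA1, -1.13 to -1.05 for LPCAT1, -3.15 to -3.04 for CEACAM6 on chromosome 19 and -4.86 to -4.63 for CEACAM6 on the scaffold, and 1192 to 1198 entries called.

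Replicate numbers gave no evident pairing of the libraries. Deviations of same-numbered libraries from their group means correlated at -0.098, 0.082 and 0.164. Of the PC9-GR libraries only number 3 correlated best with the PC9 library of its own number. Whether same-numbered libraries shared a batch was not tested. With the replicate block the adjusted p of limma was 1.16e-05 for FOXA1, 1.23e-05 for LPCAT1, 1.19e-06 for CEACAM6 on chromosome 19 and 8.63e-07 for CEACAM6 on the scaffold, and the counts were 586 higher and 619 lower.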

Other observations

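CEACAM6 is 1 of 69 GPI-anchored surface proteins on a further list, of which 11 genes are in the table with 12 entries. Of the 10 entries tested, 5 were called higher and 5 lower, with a median log2 difference of -0.10. The shares over all tested entries were 48.4% higher and 51.3% lower. With equal library totals 5 of the 10 were called higher and 3 lower and their median was 0.39. The largest falls were the 2 entries of CEACAM6 itself. CDH13, a cadherin held by such an anchor, was higher in PC9-GR at 10.2 ± 0.492 FPKM, against 0.204 ± 0.157 FPKM in PC9 (SD, n = 3 each; limma adjusted p = 9.83e-08), and so was RECK, an inhibitor of matrix proteases, at 3.78 ± 1.08 FPKM in PC9-GR, against 1.01 ± 0.201 FPKM in PC9 (limma adjusted p = 0.00012).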
